A study of Homo sapiens with 6 samples.

Results

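The genes described here are 10 genes that carry peptides into the endoplasmic reticulum (ER), trim them and load them onto HLA class I molecules. Trimming takes place in the ER or, for LNPEP, in endosomes. They were taken by gene symbol from a table of 60611 genes and all 10 were found. They fall into 4 roles: the transporter (TAP1, TAP2), the tapasin editors (TAPBP, TAPBPL), the peptide-trimming aminopeptidases (ERAP1, ERAP2, LNPEP) and the chaperones of the loading complex (CALR, CANX, PDIA3). The RNA came from EndoC-BH5, a beta-cell line of the human pancreas with the genotype label WT, and was sequenced in 6 libraries. The vehicle group held 3 libraries, and the cytokine group held 3 libraries from cells given interferon gamma together with interleukin 1 beta, at doses and for a time that the sources used here do not give. The labels call the 3 treatments of a group batches and do not say whether these were separate cultures, so the p-values reflect sample-to-sample spread that may be technical. All 6 libraries came from 1 cell line, so differences between donors are not sampled. The comparison asked how RNA levels in these beta cells differed after exposure to the cytokine pair.

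HLA class I molecules show short peptides from inside the cell to CD8+ T cells. The peptides are cut from proteins in the cytosol, mostly by the proteasome, and TAP1 and TAP2, the subunits of an ATP-driven pump in the ER membrane, carry them into the ER. Inside the ER, aminopeptidases shorten peptides that are too long, while calnexin and calreticulin hold the newly made class I chain, and tapasin, bound to ERp57, keeps the chain next to the pump until a tightly binding peptide has been found. Beta cells are the targets of CD8+ T cells in type 1 diabetes, and raised class I protein in islets is a known feature of that disease.

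Levels are given as CPM (a gene's count scaled to a common library size, here after TMM scaling), with the mean ± SD of n = 3 libraries per group. A change is the log2 of the cytokine level over the vehicle level, from the fit. Its standard error (SE) was worked back from the log2 change and the F statistic of its test. This SE is approximate and can be too small for large changes. Total counts ran from 5871481 to 15894082 in the vehicle libraries and from 13689972 to 16175364 in the cytokine libraries. In edgeR's quasi-likelihood test 28.3% of 17863 tested genes were higher and 28.8% were lower with cytokines, so a call alone says little, and size was tested as well: 7.81% of tested genes were higher by more than 1.5-fold in edgeR's glmTreat test. The 10 markers of beta cells were present in all libraries, with a summed level of 21436 to 22551 CPM with vehicle and 31687 to 32391 CPM with cytokines. CHGA alone gave a mean of 11710 CPM with vehicle and 18090 CPM with cytokines. Of the 10 markers, 4 were higher and 6 lower. The 11 markers of leukocytes and macrophages summed to 9.53 to 10.1 CPM with vehicle, where TYROBP was at 0, and to 24.8 to 25.7 CPM with cytokines, where CD68 alone gave 21.4 CPM. The 6 markers of endothelial cells summed to less than 1 CPM in each library, and the 6 of fibroblasts went from 3.21 to 4.39 CPM up to 12.8 to 14.1 CPM, mostly PDGFRB. The 7 acinar and ductal markers summed to 159 to 177 CPM and 137 to 148 CPM, with PRSS1 at 0 in all 6 libraries. KRT19 alone gave a mean of 161 CPM with vehicle and 135 CPM with cytokines. The 6 markers of other islet cells summed to 601 to 671 CPM and 621 to 658 CPM, of which SST alone gave means of 555 and 568 CPM. The part of other cell types in the results below was not tested. In bulk RNA, a change in the number of cells of a type and a change in RNA per cell cannot be told apart.

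The promoters are shown first, as the sequence context of the values that follow. RefSeq windows on GRCh38.p14, from 250 bases before to 50 bases after a start site, were matched for 9 of the 10 genes, and motifs were searched on both strands. The motifs were chosen after the expression values were known, so a match is a description of the sequence only. The first was a pair of interferon regulatory factor (IRF) core sites, GAAA and GAAA with any 2 bases between them. Of all 35116 windows 3.57% held it, and 4.38% of the 27305 genes with a window held it in any of their windows. It was found in 5 genes, each shown 5′ to 3′ on the gene's own strand with the match in capitals, reading as TTTC where the match lies on the opposite strand.
TAP1 (chr6:32853819-32853848, minus strand): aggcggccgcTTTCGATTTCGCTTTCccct
TAP2 (chr6:32838778-32838807, minus strand): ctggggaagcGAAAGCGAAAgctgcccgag
TAPBP (chr6:33314079-33314108, minus strand): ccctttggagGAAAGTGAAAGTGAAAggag
ERAP1 (chr5:96807924-96807953, minus strand): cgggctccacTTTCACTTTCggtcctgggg
ERAP2 (chr5:96876460-96876489, plus strand): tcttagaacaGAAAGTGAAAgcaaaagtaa
In TAP1 and TAPBP the capitals hold a pair of overlapping matches. Counted from the listed start, with upstream bases negative, the matches lay at -134 to -119 in TAP1, -58 to -49 in TAP2 and -20 to -5 in TAPBP. In ERAP2 the match lay at -30 to -21 of the second listed start, and in ERAP1 it lay at 3 to 12 of the first. These letters were not found in the windows of TAPBPL, LNPEP, CALR or CANX.

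The second motif of interest was a site for NF-kappaB, the factor that interleukin 1 is known to activate. It was searched as GGG and TTTCC with any 2 bases between them and was held by 1.91% of all windows and 2.33% of genes. It was found in TAP1, TAPBP and the second listed start of TAPBPL, again with the match in capitals.
TAP1 (chr6:32853757-32853786, minus strand): gcctgttcctGGGACTTTCCgagagccccg
TAPBP (chr6:33314115-33314144, minus strand): taaccagagcGGGGATTTCCaccgcccctc
TAPBPL (chr12:6451967-6451996, plus strand): gaaatcaccaGGGGATTTCCgggtgaggtg
The third was the ER stress response element, CCAAT and CCACG with any 9 bases between them, which holds a CCAAT box. It was held by 0.0769% of all windows and 0.0916% of genes. It was found in the 2 chaperones that hold the class I chain by its sugar.
CALR (chr19:12938378-12938407, plus strand): cccacgCGTGGTCGACCATCATTGGtcggt
CANX (chr5:179698772-179698801, plus strand): tcccggCCAATCTTCACACTCCACGaagaa
In CALR the element lay on the opposite strand at -225 to -207, and in CANX the same copy fell in 3 of the 4 listed windows. Annotated exons covered the CANX element and the NF-kappaB matches of TAP1 and TAPBP. The IRF pairs of TAP1, TAP2, TAPBP and ERAP2 also lay in annotated exons, and that of ERAP1 lay after its listed start. Annotated exons did not cover the CALR element or the TAPBPL match. A GAS element (TTC and GAA with any 3 bases between them), a site for STAT factors, was found at the second listed starts of TAP1 and LNPEP. It was held by 7.66% of all windows and 9.38% of genes. By role, IRF pairs were found in the transporter, in tapasin and in the ER aminopeptidases, and the stress element in CALR and CANX. PDIA3 was the gene not searched.

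**Figure D1:**
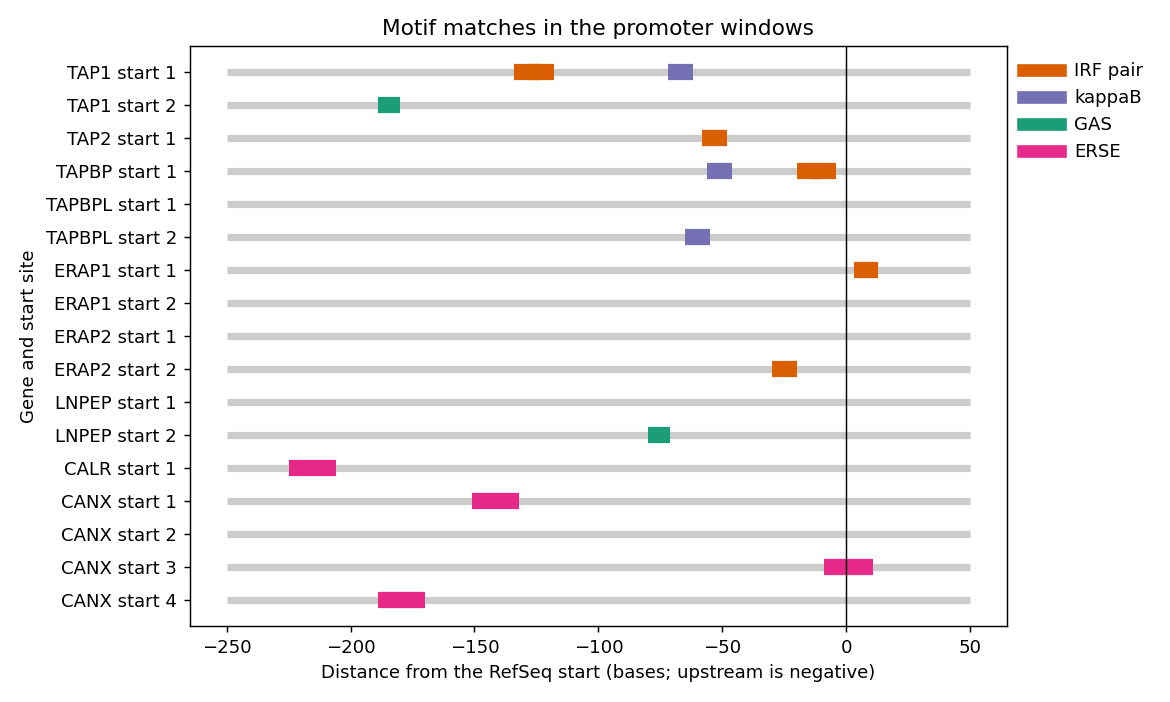
Matches to 4 motifs in 17 RefSeq promoter windows of 9 genes, by distance in bases from the listed start (upstream is negative); each grey bar is a window and each coloured block a match. IRF pairs lie in windows of TAP1, TAP2, TAPBP, ERAP1 and ERAP2, and the ER stress element in those of CALR and CANX.

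The transporter genes moved most. TAP1 (ENSG00000168394), the subunit of the pump to which tapasin also binds, was at 6.83, 6.80 and 6.67 CPM in vehicle replicates 1, 2 and 3 and at 2065, 1986 and 2075 CPM in cytokine replicates 1, 2 and 3. The 3 vehicle libraries were low and close together, and the cytokine libraries stood far above them. The rise from 6.76 ± 0.084 to 2042 ± 48.5 CPM was 303-fold, a log2 change of 8.24 (SE 0.0616, edgeR adjusted p = 1.4e-35), which placed TAP1 at rank 34 of 17863 tested genes by log2 change. In the deposited counts this was 43, 74 and 114 counts against 31030, 25273 and 28646.

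TAP2 (ENSG00000204267), the other subunit of the pump, was at 10.3, 9.37 and 11.6 CPM with vehicle and at 681, 696 and 709 CPM with cytokines. Its libraries did not overlap either, and the vehicle spread was wider than that of TAP1. TAP2 rose 65.5-fold, from 10.4 ± 1.11 to 695 ± 13.9 CPM (log2 change 6.03, SE 0.0631, edgeR adjusted p = 1.6e-32). Both genes lie on the minus strand of chromosome 6 (GRCh38), TAP1 from 32845209 to 32853978 and TAP2 from 32821833 to 32838780, with PSMB8 between them.

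The tapasin editors rose less. TAPBP (ENSG00000231925) encodes tapasin, which bridges the class I chain to the pump and favours tightly bound peptides. It was at 75.7, 82.9 and 82.1 CPM with vehicle and at 565, 558 and 591 CPM with cytokines, so even the lowest cytokine library stood well above every vehicle library. The rise from 80.3 ± 3.95 to 571 ± 17.5 CPM was 7.07-fold (log2 change 2.82, SE 0.047, edgeR adjusted p = 1e-27). TAPBP is at 33299694 to 33314387 on chromosome 6, minus strand.

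TAPBPL (ENSG00000139192) encodes TAPBPR, a tapasin relative that edits peptides outside the loading complex. It was at 18.4, 20.6 and 20.7 CPM with vehicle and at 65.0, 65.2 and 69.5 CPM with cytokines. The groups were again apart, with 3 low vehicle libraries and 3 higher cytokine libraries. TAPBPL rose 3.29-fold, from 19.9 ± 1.29 to 66.6 ± 2.52 CPM (log2 change 1.72, SE 0.0658, edgeR adjusted p = 6.2e-19). It lies on chromosome 12 at 6451690 to 6466517, plus strand.

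The 3 aminopeptidases lie side by side on chromosome 5 and responded very differently. ERAP1 (ENSG00000164307), which trims peptides from their amino end with a preference for long ones, was at 63.7, 67.1 and 64.3 CPM with vehicle and at 227, 235 and 217 CPM with cytokines. It rose 3.47-fold, from 65.0 ± 1.85 to 226 ± 8.75 CPM (log2 change 1.80, SE 0.0487, edgeR adjusted p = 1.5e-22). All cytokine libraries of ERAP1 were above all vehicle libraries.

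ERAP2 (ENSG00000164308), a second ER aminopeptidase with a preference for basic residues, was at 11.4, 10.7 and 9.83 CPM with vehicle and at 172, 173 and 168 CPM with cytokines. ERAP2 rose 16.4-fold, from 10.7 ± 0.805 to 171 ± 2.98 CPM (log2 change 4.03, SE 0.0655, edgeR adjusted p = 5.7e-28). ERAP1 is at 96760810 to 96808100 on the minus strand and ERAP2 at 96875939 to 96919716 on the plus strand.

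LNPEP (ENSG00000113441), which encodes insulin-regulated aminopeptidase, a trimming enzyme of endosomes that serves cross-presentation, was at 74.0, 80.6 and 78.8 CPM with vehicle and at 83.8, 94.1 and 82.1 CPM with cytokines. The groups stood apart by little, since the highest vehicle library was at 80.6 CPM and the lowest cytokine library at 82.1 CPM. It went from 77.8 ± 3.44 to 86.6 ± 6.5 CPM, a 1.11-fold difference that passed the test (log2 change 0.15, SE 0.0551, edgeR adjusted p = 0.026). That call did not hold under all settings: scaling by library size alone gave a log2 change of -0.06 (edgeR adjusted p = 0.36), and without cytokine replicate 2, vehicle replicate 1 or vehicle replicate 3 the edgeR adjusted p was 0.19, 0.078 and 0.065. LNPEP begins 15678 bases beyond the end of ERAP2, at 96935394 to 97037515 on the plus strand.

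The chaperones were abundant with vehicle and rose modestly. PDIA3 (ENSG00000167004) encodes ERp57, the disulfide isomerase bound to tapasin in the loading complex. It was at 583, 640 and 600 CPM with vehicle and at 1464, 1435 and 1460 CPM with cytokines. The rise from 608 ± 29.7 to 1453 ± 15.5 CPM was 2.39-fold (log2 change 1.26, SE 0.0396, edgeR adjusted p = 5.7e-21), the largest among the 3 chaperones. PDIA3 lies on chromosome 15 at 43746392 to 43773279, plus strand.

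CALR (ENSG00000179218) encodes calreticulin, the soluble lectin that holds the class I chain in the loading complex. It was at 634, 692 and 636 CPM with vehicle and at 1071, 1074 and 1111 CPM with cytokines. CALR rose 1.66-fold, from 654 ± 33 to 1085 ± 22.2 CPM (log2 change 0.73, SE 0.0402, edgeR adjusted p = 3.3e-15), and with the threshold set at 1.5-fold it still passed (glmTreat in edgeR, adjusted p = 0.0012). That call was lost with library size alone, where its log2 change was 0.53 and 7 of the 10 genes passed. The gene is on chromosome 19 at 12938578 to 12944489, plus strand.

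CANX (ENSG00000127022) encodes calnexin, the membrane-bound relative of calreticulin that takes up the class I chain before it. It was at 922, 1045 and 994 CPM with vehicle and at 1426, 1433 and 1391 CPM with cytokines. CANX rose 1.43-fold, from 987 ± 61.8 to 1417 ± 22.3 CPM (log2 change 0.52, SE 0.041, edgeR adjusted p = 9.8e-12), and did not pass against 1.5-fold (glmTreat in edgeR, adjusted p = 1). Its span is 179678628 to 179730925 on chromosome 5, plus strand.

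**Figure D2:**
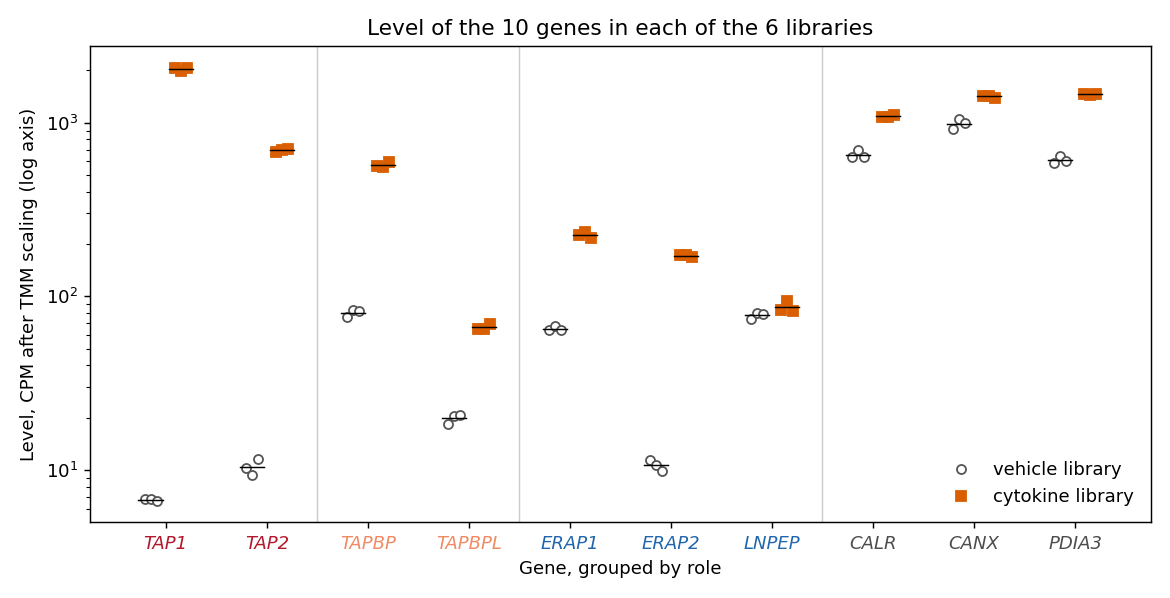
Level of each of the 10 genes in CPM after TMM scaling (log axis), grouped by role, with open circles for the 3 vehicle libraries, orange squares for the 3 cytokine libraries and a line at each group mean. TAP1 goes from a mean of 6.76 CPM to 2042 CPM, while LNPEP stays between 74.0 and 94.1 CPM; CPM is not corrected for length, so levels of different genes are not compared here.

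Of the 10 genes, 10 were higher and 0 lower in edgeR's test, against 28.3% of all tested genes higher. The lowest cytokine library was above the highest vehicle library in all 10, against 30.3% of tested genes. Against 1.5-fold, 8 of the 10 passed, all but LNPEP and CANX, where 7.81% of tested genes did so in the same direction. The median log2 change of the 10 genes was 1.76, and that of all tested genes was -0.018. Every one of the 10 genes had at least 43 counts in each vehicle library, so none entered the test through its cytokine libraries alone. In the authors' deposited table the log2 fold changes were 8.25 for TAP1, 6.04 for TAP2, 2.83 for TAPBP, 1.73 for TAPBPL, 1.80 for ERAP1, 4.04 for ERAP2, 0.14 for LNPEP, 0.74 for CALR, 0.51 for CANX and 1.27 for PDIA3. Among the 9 genes with a promoter window, the 5 with an IRF pair had log2 changes of 1.80 to 8.24 and the 4 without had 0.15 to 1.72. The motifs were chosen with these values known, so this split is a description only. ERAP1 at 1.80 and TAPBPL at 1.72 were close, and PDIA3 was not searched. A link between motif and change was not tested.

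**Figure D3:**
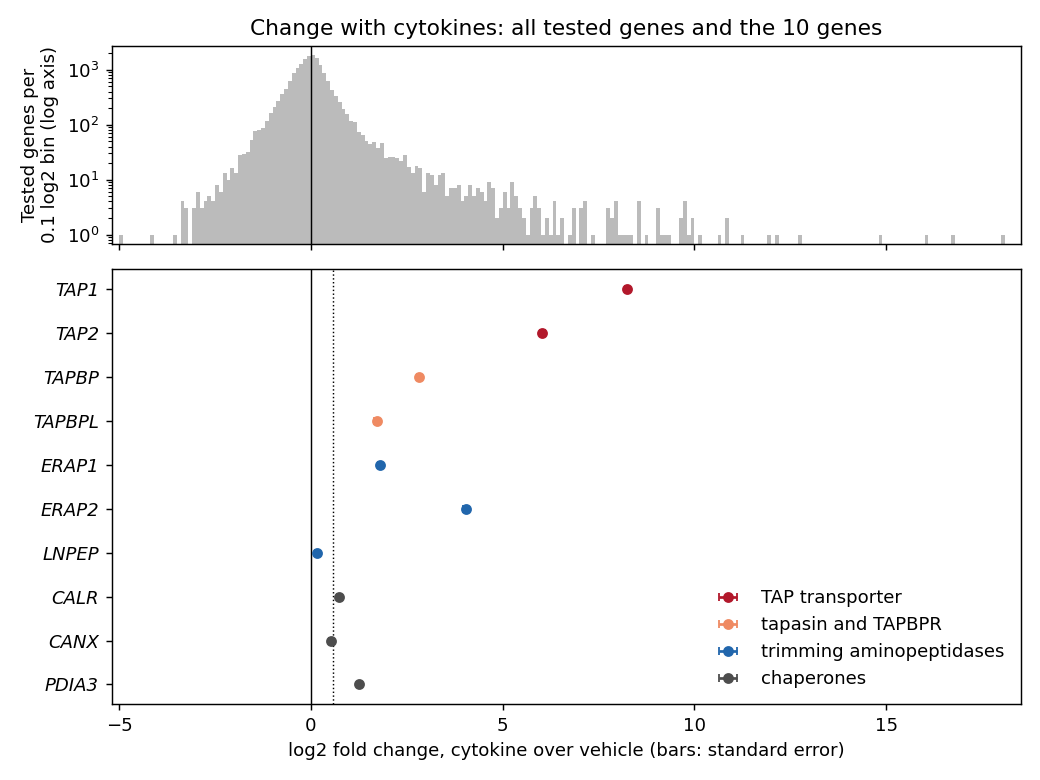
Top: number of tested genes per bin of log2 fold change of cytokine over vehicle (log axis, 17863 genes). Bottom: the log2 fold change of each of the 10 genes, coloured by role, with a dotted line at 1.5-fold. Bars give the approximate SE and are mostly hidden by the points. LNPEP at 0.15 and CANX at 0.52 lie left of the dotted line and TAP1 lies at 8.24.

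Partners of a role did not rise by the same factor. The ratio of a pair of genes within a library does not depend on how libraries are scaled, and 5 pairs were compared by an exact two-sided permutation test, where 3 libraries against 3 cannot go below 0.1. The log2 ratio of TAP1 over TAP2 was -0.60, -0.46 and -0.80 with vehicle and 1.60, 1.51 and 1.55 with cytokines. The log2 ratio was below 0 in every vehicle library and above 0 in every cytokine library, as ratios of counts that are not corrected for length. The ratio rose 4.51-fold (log2 difference 2.17, SE 0.1). Each SE of a ratio difference came from the spread between libraries.

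For the aminopeptidases, the log2 ratio of ERAP1 over ERAP2 went from 2.48, 2.64 and 2.71 to 0.40, 0.44 and 0.37, a log2 difference of -2.21 (SE 0.0716). This log2 ratio stayed above 0 in every library and was lower in all 3 cytokine libraries. The log2 ratio of ERAP2 over LNPEP went from -2.69, -2.91 and -3.00 to 1.04, 0.88 and 1.03, a 14.4-fold increase (log2 difference 3.85, SE 0.105) that took the log2 ratio from below 0 to above 0.

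For the editors, the log2 ratio of TAPBP over TAPBPL went from 2.04, 2.01 and 1.99 to 3.12, 3.10 and 3.09, a 2.13-fold increase (log2 difference 1.09, SE 0.0176). The lectin chaperones changed nearly in step: the log2 ratio of CALR over CANX was -0.54, -0.59 and -0.64 with vehicle and -0.41, -0.42 and -0.32 with cytokines, a difference of 0.21 (SE 0.0422). In all 5 pairs the vehicle and cytokine ratios did not overlap, which gave an exact permutation p of 0.1 for each and an adjusted p of 0.1 over the 5 pairs, the smallest this design allows.

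**Figure D4:**
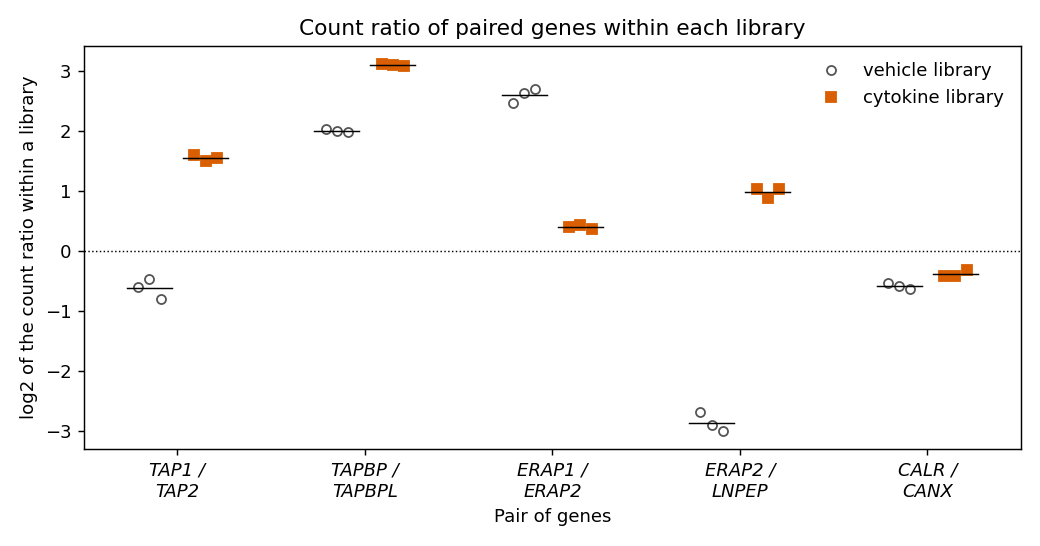
log2 of the count ratio within each library for 5 pairs of genes, with open circles for vehicle, orange squares for cytokine and a line at each group mean. TAP1 over TAP2 and ERAP2 over LNPEP cross 0, the line of equal counts, and CALR over CANX differs by 0.21.

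Levels of different genes were compared only per length, as TPM from the summed exon length of each gene, which is not rescaled by TMM. With vehicle, the order was CALR at 940 ± 42.3 TPM, CANX at 617 ± 37.7, PDIA3 at 559 ± 25.2, TAPBP at 61.9 ± 3.16, ERAP1 at 31.9 ± 0.774, TAPBPL at 24.3 ± 1.67, LNPEP at 19.9 ± 0.885, TAP2 at 6.33 ± 0.733, ERAP2 at 5.60 ± 0.395 and TAP1 at 5.49 ± 0.0382 TPM. The libraries of CANX and PDIA3 overlapped, as did those of TAP2 and ERAP2 and those of ERAP2 and TAP1, and the order within these pairs was not resolved. On these lengths TAP1, TAP2 and ERAP2 were the scarcest of the 10 transcripts in unexposed cells, and the chaperones the most abundant.

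With cytokines, the order was TAP1 at 1436 ± 28.8 TPM, CALR at 1351 ± 17.2, PDIA3 at 1158 ± 11.8, CANX at 768 ± 17.9, TAPBP at 382 ± 8.76, TAP2 at 368 ± 5.33, ERAP1 at 96.2 ± 4.4, ERAP2 at 77.9 ± 1.94, TAPBPL at 70.5 ± 2.15 and LNPEP at 19.2 ± 1.54 TPM. No neighbours in this order overlapped. The place of TAP2 is uncertain all the same, since its reads may be split with a readthrough gene described below. The same holds for the per-length ratio of TAP1 over TAP2 and for the share of the transporter. LNPEP, which was called higher after TMM scaling, ran from 18.8 to 20.5 TPM with vehicle and from 18.0 to 20.9 TPM with cytokines, so its libraries overlapped on this scale. TAP1 went from the 21.3 to the 99.7 percentile of 17608 genes ranked by TPM, and TAP2 from the 23.8 to the 98.6 percentile. Per length, TAP1 over TAP2 went from 0.871 to 3.91 and ERAP1 over ERAP2 from 5.70 to 1.23. With the length of the longest transcript in place of the summed exons, the cytokine order was the same, and among the low vehicle levels TAP1 moved up to rank 8 at 6.85 TPM and TAP2 down to rank 10 at 5.47 TPM. With the deposited length, which is close to the genomic span with introns, the orders changed more. With vehicle, PDIA3 at 203 TPM then stood above CANX at 167 TPM, and LNPEP at 6.83 TPM stood below TAP1 at 7.05 TPM. With cytokines, CANX went to rank 6 at 211 TPM and TAP2 to rank 4 at 324 TPM, while TAP1 kept rank 1.

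The make-up of the 10 genes shifted from the chaperones to the transporter. Their summed level went from 2271 ± 106 to 5726 ± 30.6 TPM. The transporter made up 0.543%, 0.468% and 0.555% of that sum with vehicle and 31.7%, 31.2% and 31.7% with cytokines, and TAP1 alone made up 25.1 ± 0.361% of it with cytokines. The chaperones went from 93.2% to 57.2%, although each of them rose, the editors from 3.80% to 7.90% and the aminopeptidases from 2.53% to 3.38%.

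**Figure D5:**
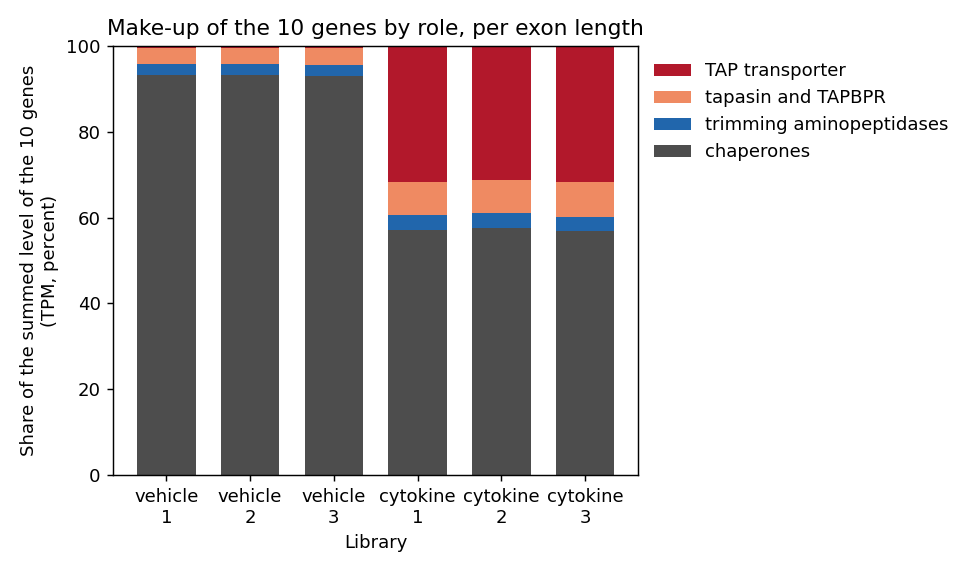
Share of the summed TPM of the 10 genes held by each role, in percent, for each of the 6 libraries (stacked bars, each summing to all 10 genes). The transporter share is too thin to see with vehicle, at 0.522% on average, and is 31.5% with cytokines.

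Genes that overlap or adjoin these genes were examined, since the strand setting of the counting is not given and reads of overlapping genes may be shared. AL669918.1, a readthrough gene on the strand of TAP2, shares 2064 exon bases with it, 32.3% of the exon bases of TAP2, and went from 6.31 ± 0.493 to 400 ± 12.7 CPM (log2 change 5.96). Counted together with AL669918.1, TAP2 had a log2 change of 6.02, close to the 6.03 of TAP2 alone, while the level of TAP2 is uncertain, since reads may be split between them. PSMB8, an immunoproteasome subunit whose gene lies 506 bases from TAP1, went from 6.51 ± 0.419 to 255 ± 15.1 CPM (log2 change 5.32). PSMB9, another such subunit, overlaps TAP1 on the opposite strand with 0 shared exon bases. The antisense gene PSMB8-AS1 shares 9.49% of the exon bases of TAP1 and rose from 0.88 ± 0.212 to 20.9 ± 1.19 CPM. On the other side of TAP2, HLA-DOB, a class II chain, was at 0 counts in each of the vehicle libraries, and 11.83, 12 and 20.83 counts were listed with cytokines.

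The genes beside TAPBP did not share its rise: ZBTB22, which lies 19 bases from it, had a log2 change of 0.11 (edgeR adjusted p = 0.24), and RGL2 fell by 0.18 on the log2 scale (edgeR adjusted p = 0.007). On chromosome 5, CAST shares 299 exon bases with ERAP1 on the opposite strand and rose by 0.37 on the log2 scale, and PCSK1, the prohormone convertase gene on the far side of CAST, rose by 0.74. AC009126.1, antisense to ERAP2 and LNPEP, was at 3.59 and 4.18 CPM and did not pass the test (edgeR adjusted p = 0.45). At the TAPBPL locus VAMP1, which shares 10.6% of its exon bases on the opposite strand, did not pass the test with a log2 change of -0.11, and LTBR, the lymphotoxin receptor gene beyond CD27 on the other side, rose by 1.12. ELL3 and AC018512.1, which share 14.8% and 14.3% of the exon bases of PDIA3 on the opposite strand, fell by 0.77 and 0.74 on the log2 scale, opposite to PDIA3, at under 4 CPM. Next to CALR, FARSA did not pass the test, with a log2 change of -0.04.

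The same pathway was followed upstream and downstream in 10 lists of 96 genes, of which 87 were tested. Of those, 66 were higher, 9 lower and 12 did not pass edgeR's test, with a median log2 change of 0.44, where 28.3% of all tested genes were higher, 28.8% lower and the median was -0.018. The counts of each list below are to be read against the same shares. The 9 untested genes had at most 9 counts in any library. All 7 class I chain genes rose (median log2 change 4.44), led by HLA-B at 8.56, although reads of HLA genes can be split between near-identical copies. All 5 genes of the immunoproteasome and its activator rose (median 4.70), led by PSMB9, which went from 0.395 ± 0.0719 to 243 ± 15.1 CPM and had at most 6.5 counts in a vehicle library. These lists supply the chains and the peptides that the pump and the editors handle.

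Peptidases that act on peptides outside the ER were mixed. Of 12 cytosolic peptidases, 6 rose, 2 fell and 4 did not pass (median log2 change 0.14), with 1 in place of 2 lower without cytokine replicate 3 or vehicle replicate 3, with DESeq2 or at an adjusted p of 0.01. LAP3, a leucine aminopeptidase, rose from 28.7 ± 1.88 to 896 ± 29 CPM (log2 change 4.98), and NPEPPS, the puromycin-sensitive aminopeptidase, fell by 0.22 on the log2 scale. Among the 8 other M1 aminopeptidases, the enzyme family of ERAP1, ERAP2 and LNPEP, 4 were tested, 2 rose and 2 fell. The count of 2 higher was 1 without cytokine replicate 1, cytokine replicate 2, vehicle replicate 1 or vehicle replicate 3 and with no filter on low counts, and 0 with DESeq2 or at an adjusted p of 0.01. LTA4H, which makes leukotriene B4, fell from 56.0 ± 2.29 to 37.0 ± 1.32 CPM (log2 change -0.60), and the largest rise in that list was RNPEPL1 at 0.16. ERAP1 and ERAP2, at 1.80 and 4.03, lay above every tested relative in that list.

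ER folding genes rose as the chaperones did, by small factors. All 12 other ER chaperones rose (median log2 change 0.69), with the largest rise in PPIB, an ER cyclophilin, from 318 ± 20.4 to 617 ± 26 CPM (0.96). CALR at 0.73 and CANX at 0.52 were close to that median. Of 13 other ER disulfide isomerases, 10 rose, 1 fell and 2 did not pass (median 0.39). PDIA6 rose most, from 390 ± 16.9 to 1067 ± 8.55 CPM (log2 change 1.45), near the 1.26 of PDIA3, and PDIA2 fell from 2.21 ± 0.584 to 1.47 ± 0.108 CPM with overlapping libraries (edgeR adjusted p = 0.029). The PDIA2 call was lost without cytokine replicate 1, cytokine replicate 2, vehicle replicate 1 or vehicle replicate 3, with DESeq2, with no filter on low counts and at an adjusted p of 0.01. In the glycan cycle that feeds calnexin and calreticulin, 8 of 10 genes were tested, 6 rose, 1 fell and 1 did not pass (median 0.37). EDEM1, which directs misfolded glycoproteins to degradation, rose by 0.82, and CLGN, a calnexin relative, fell by 0.49 on the log2 scale.

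Among 9 other transporters of the ABC B family, to which TAP1 and TAP2 belong, 7 were tested, 2 rose, 2 fell and 3 did not pass (median log2 change -0.13), shares near those of all tested genes. ABCB1, the drug efflux pump, rose from 69.9 ± 4.49 to 337 ± 7.65 CPM (2.25), and ABCB9, the lysosomal TAP-like transporter, fell from 21.2 ± 2.22 to 14.7 ± 0.36 CPM (-0.50). Of 8 class I and ER exit factors 7 were tested and all 7 rose (median 0.46), led by MR1, a class I-like molecule, at 0.78. Of 12 regulators of class I genes, 9 rose, 1 fell and 2 did not pass (median 0.44). NLRC5, the class I transactivator, rose from 1.96 ± 0.841 to 594 ± 2.46 CPM (log2 change 8.35), and RFXAP, a subunit of the RFX complex, fell by 0.27 on the log2 scale with overlapping libraries (edgeR adjusted p = 0.021), a call lost without vehicle replicate 3, with DESeq2 and at an adjusted p of 0.01. Scaled by library size alone, 53 genes of the 96 were higher and 19 lower, with 4 higher and 6 lower among the cytosolic peptidases, 0 and 2 among the M1 aminopeptidases and 2 and 4 among the ABC B transporters.

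Across all tested genes with a RefSeq window, 472 held an IRF pair, of which 245 (51.9%) were higher and 110 (23.3%) were called higher by at least 2-fold. Of 11526 genes without it, 30% were higher and 4.84% were called higher by at least 2-fold. A kappaB match was held by 349 genes, of which 12.3% were called higher by at least 2-fold, against 5.37% without it. The ER stress element was held by 15 tested genes, CALR and CANX among them, with a median log2 change of 0.35, and 10 of the 15 (66.7%) were higher, against 30.8% without it. Of these 15, 13.3% were called higher by at least 2-fold, against 5.56% without it. The shares at least 2-fold higher were 10.4% with a GAS element and 5.13% without it, and 5.39% with a CCAAT box and 5.7% without it. Genes with a motif differ in other ways too, and these shares carry no test.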

How the data were processed

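RNA was measured in 3 vehicle and 3 cytokine libraries, grouped by the treatment label. Per the labels' protocols, RNA came from a Nucleospin miRNA kit and libraries from the NEBNext Ultra II Directional kit. The submitters' processing notes name GRCh38, HTSeq 0.12.4, STAR 2.7.5a, cutadapt 2.10, Picard 2.23.2, FastQC 0.11.9 and MultiQC 1.9 without roles. The sources used here give neither the annotation release nor the strand setting.

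The authors deposited an estimated count per gene and library, not normalised, per the file headers and the values (67.3% to 73.5% of values above 0 lay within 0.005 of a whole number). The columns carrying NT were taken as vehicle, since the others carry the cytokine name. The log2 fold change and the p-value adjusted as FDR are the authors' deposited values, with no tool named per the file headers, and only the fold changes are quoted. The deposited length column served only as an alternative length.

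Estimated counts were rounded, where the planned design named counts as deposited. The fit was edgeR 4.0.16 in R 4.3.3 with filterByExpr (17863 genes kept), TMM, group as the single term, robust quasi-likelihood F tests, Benjamini-Hochberg adjustment over all tested genes at 0.05, and glmTreat for size. TMM factors were 1.06 to 1.08 for vehicle and 0.931 to 0.934 for cytokine, and edgeR's common coefficient of biological variation was 3.46%. Exon lengths and gene coordinates came from GENCODE 29 on GRCh38. Promoter windows came from RefSeq. Replicates of a group differed by a chi-square of 1.37 to 2.45 per gene and were counted separately.

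The members and lists were chosen with earlier results of these data known. Named genes were all 10 members, the largest rise and fall past the test in each list (from 1 CPM in the higher group), and overlapping or neighbouring genes, of which some are not described. A simulation modelled on this comparison held 17863 genes, and only 50 of them were given each size of log2 change. The test found 32% of the genes set to 0.25, 80% at 0.5, 96% at 1 and 100% at 2. It made 163 calls, of which 9 were false. In the real data 10201 genes were called, far more than the simulation changed. Whether these shares hold when so many genes change was not tested.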

Additional observations from a re-analysis of the deposited data

How the results depend on the processing

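Alternatives were DESeq2 size factors in edgeR, library size alone, DESeq2 1.42.0 with its own filter, other filters on low counts, counts not rounded, an adjusted p of 0.01, the replicate number as a block and each library left out in turn. TAP2 with its readthrough gene was added after seeing the data. The 9 members other than LNPEP kept their direction and their call as higher in every alternative run. LNPEP lost its call in 6 of 14: its log2 change was -0.06 with library size alone, and its adjusted p was 0.055 with DESeq2, 0.026 against a threshold of 0.01, 0.19 without cytokine replicate 2, 0.078 without vehicle replicate 1 and 0.065 without vehicle replicate 3. With library size alone, which moved the median log2 change of all genes from -0.018 to -0.22, 2980 genes were higher and 8791 lower in the whole table, 25.3% of calls were higher where TMM gave 49.6%, and 19 pathway genes were lower. With DESeq2's own filter 3365 genes were lower. The cause was not tested. Same-numbered libraries of the groups did not deviate together (correlations of 0.0115, -0.0471 and -0.0499). No pairing by number was seen, but replicates differed little, so a weak shared effect could be missed. A fit with the replicate block called 5001 genes higher and 5097 lower and left all 10 members higher. Leaving out 1 library at a time gave 4577 to 5086 genes higher, 4355 to 4858 lower, 9 to 10 members higher and 8 past 1.5-fold. With library size alone 7 members passed 1.5-fold, without CALR, and against a fold of 2, 7 passed. Depth limits the low levels most in vehicle replicate 1, with 5871481 counts.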
